A study of Mus musculus with 30 samples.

Results

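Of the monocytes that enter a glioma, a portion differentiates there into macrophages, and cells of either kind can pick up membrane from the tumor. The comparison described here set both kinds against each other among cells that had done so. Ly6C high brain monocytes that carried tumor GFP (GFPpos glioma monocytes) were compared with brain macrophages with low CCR2 that carried it (GFPpos CCR2low macrophages). The members were chosen by the population written in the sample title, and no measured value was used. They were 8 of the 30 samples of the series, which gave 7 of its 28 replicates: 3 of monocytes, from mice 22, 24 and 26, and 4 of macrophages, from mice 22, 23, 24 and 26. The monocytes of mouse 22 had been sequenced in 2 libraries, whose counts were summed. All populations came from 4 mice, males and females, with 3 or 4 of them in each population, of the strain C57BL6.CCR2RFP/WT, aged 12-18 weeks, in which 1 *Ccr2* allele carries a red fluorescent reporter. All of them bore the GL261.BpalmGFP glioma, a single mouse line that makes a membrane-anchored GFP, implanted in the striatum 30 days earlier. Brain cells were gated as CD11b high CD45 high, then by Ly6C, F4/80 and the CCR2 reporter. GFPpos stands for cells with tumor membrane on or in them, and GFPneg for those without. None of these groups came from a tumor-free brain.

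Classical monocytes leave the bone marrow in response to ligands of the receptor CCR2 and circulate with high surface Ly6C. In an inflamed or tumor-bearing tissue they lose Ly6C and CCR2 and gain receptors for apoptotic cells, growth factors and lysosomal enzymes as they become macrophages. Type I interferon and pro-inflammatory cytokines are often made or answered at the early, monocyte-like stage.

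Each replicate held 1553616 to 5689644 reads counted on genes (median 2491057), and 9611 to 12193 genes had at least 5 reads. Levels are given as CPM, read counts scaled to sequencing depth with the trimmed mean of M values, and are comparable between replicates but not between genes, since they are not divided by length. Some replicates stood apart. The monocyte replicates resembled each other less (Spearman rho 0.802 to 0.8292 over the tested genes) than the macrophage replicates did (0.899 to 0.933). Each monocyte replicate was closer to the macrophages of its own mouse than to any other monocyte replicate. The rho was 0.857, 0.862 and 0.941 in mice 22, 24 and 26, against at most 0.8292, 0.8292 and 0.804 with another monocyte replicate. Mouse 26 had the highest rho within a mouse and the lowest with another monocyte replicate. The 2 libraries of the monocytes of mouse 22 had a rho of 0.664 with each other, and the first held 8.68% of spike-in reads against 1.29%. Spike-in RNA, added before reverse transcription, made up 3.59%, 5.16% and 0.612% of the monocyte reads in mice 22, 24 and 26, and 0.284% to 0.991% of the macrophage reads. Genes that defined the gate are no finding, but they check the labels. *Ly6c2* was at 3166, 1578 and 1181 CPM in the monocytes of mice 22, 24 and 26 and at 132, 122, 224 and 78.2 CPM in the macrophages of mice 22, 23, 24 and 26. *Ccr2*, whose reporter split the macrophages, was at 349, 228 and 265 CPM in the monocytes and 42.7, 108, 35.2 and 71.8 CPM in the macrophages. *Adgre1*, which encodes F4/80, ran the other way at 472, 481 and 253 CPM against 678, 1025, 732 and 883 CPM. In all of these the populations did not overlap and followed their labels.

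Nearly all genes that passed the test were higher in the monocytes. Of 11566 genes tested, 54 were higher in the monocytes (0.467%) and 4 were lower (0.0346%), which is 58 in either direction (0.501%) at an adjusted p below 0.05 (edgeR's quasi-likelihood test with the mouse as a block and Benjamini-Hochberg adjustment, as for every adjusted p below). All 54 were higher in the monocytes in each of the 3 mice that gave both populations. The fitted folds ran from 1.65 to 384 for the higher genes and from 2.2 to 12.2 for the lower ones. Of the 58, 42 had no overlap between the 3 monocyte and the 4 macrophage values, 39 of them higher and 3 lower. Over all tested genes, 428 (3.7%) had every monocyte value above every macrophage value. The share in the opposite direction is not given, so non-overlap of genes higher in the macrophages has no background here. In bulk samples a smaller share of cells with a transcript and less of it per cell cannot be told apart, and this holds for every level given here. The higher genes included markers of classical monocytes (*Plac8*, *Chil3*, *Hp* and the gate gene *Ly6c2*) and members of the Ly6, S100 and Ifitm gene families. They also included 3 of a list of 28 type I interferon-stimulated genes (*Irf7*, *Isg15*, *Zbp1*). Among these 54 the largest fitted increases were those of *Igkv5-48* and *Klk1*, at log2 8.58 and 4.56. The 4 lower genes were *Pla2g2d*, *Igf1*, *Tgfbr1* and *Daglb*.

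The number of genes called, and the excess of higher genes, depended on single replicates. Without the monocytes of mouse 26, 174 genes were called, 67.8% of them higher, including 56 of the 58. Without the monocytes of mouse 22, 24 were called, 95.8% of them higher, including 22 of the 58. Of the 58, 21 were called whichever 1 of the 7 replicates was left out, among them *Ccr2*, *Plac8*, *Mcemp1*, *Ly6c2*, *Ms4a4c*, *Napsa*, *S100a6*, *Hp*, *Hopx*, *Clec4e*, *Prdx6*, *Ly6i*, *Glipr2*, *Ifitm6*, *Irf7*, *Gm9733*, *Lsp1*, *Slfn1*, *Ms4a8a* and *Chil3*. None of the 4 lower genes is among the 21. Without the mouse as a block 20 genes were called, all of them higher and among the 58. They included 6 of the classical monocyte genes, 1 Ly6 gene (the gate gene *Ly6c2*), 1 S100 gene and 2 Ifitm genes. They included 0 members of the lists of type I interferon-stimulated genes, inflammatory cytokines and chemokines. When the replicates were scaled to spike-in RNA in place of the bulk of genes, the typical tested gene shifted from a log2 fold change of -0.07 to -2.26, and then 0 genes were called higher and 5 lower. Every direction below is therefore relative to the typical gene of the same comparison. Spike-in RNA was added to a set amount of extracted RNA, so values under this scaling do not measure RNA per cell.

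**Figure D1:**
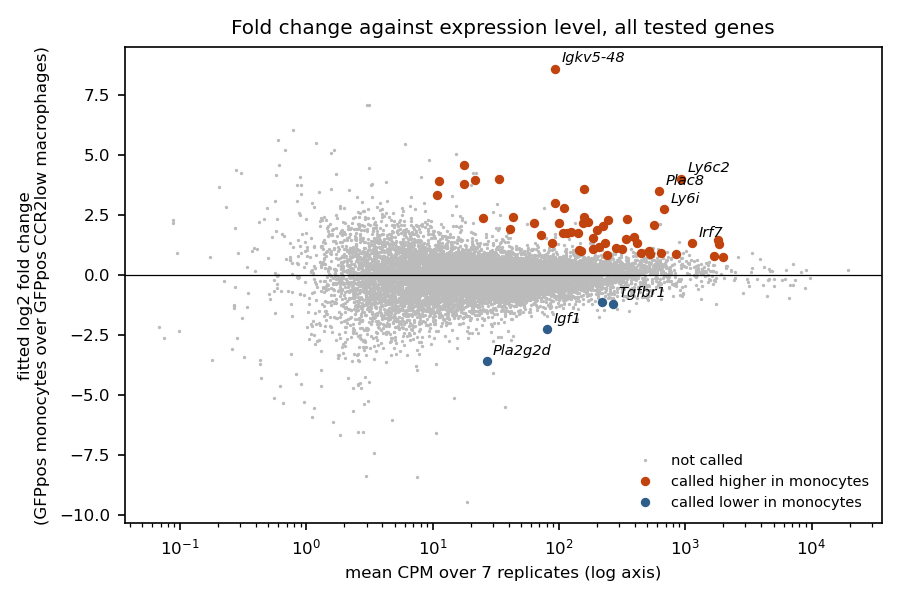
Fitted log2 fold change (GFPpos glioma monocytes over GFPpos CCR2low macrophages) against mean CPM over the 7 replicates (log axis), 1 point for each of the 11566 tested genes, with genes called higher in orange and genes called lower in blue. The 54 orange points span mean levels from 10.8 to 1977 CPM, and the 4 blue points are *Pla2g2d*, *Igf1*, *Tgfbr1* and *Daglb*.

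Genes well known from classical monocytes and granulocytes were among the largest differences. *Plac8*, a small cysteine-rich protein abundant in monocytes (chr5:100553725-100572245 of GRCm38), was at 1837, 1415 and 612 CPM in the monocytes of mice 22, 24 and 26. In the macrophages of mice 22, 23, 24 and 26 it was at 107, 139, 167 and 78.8 CPM. The lowest monocyte value was thus well above the highest macrophage value, and the fold was 11.2 (log2 3.49 ± 0.24, SE, adjusted p = 9.59e-09). *Chil3*, a secreted chitinase-like protein, was at 154, 269 and 532 CPM against 2.85, 61.8, 63.9 and 26.6 CPM. The macrophages of mouse 22 were far below the other macrophages, and the monocytes of mouse 26 were the highest (log2 3.57 ± 0.56, adjusted p = 0.00118). *Hp*, which encodes the hemoglobin-binding protein haptoglobin, was at 261, 91.1 and 208 CPM against 13.3, 22.9, 21.8 and 28.7 CPM, with no overlap (log2 3.0 ± 0.48, adjusted p = 0.00126). *Clec4e*, the C-type lectin Mincle, was at 221, 169 and 238 CPM against 34.2, 17.2, 24.8 and 59.1 CPM (log2 2.77 ± 0.39, adjusted p = 0.00036). Its monocyte values lay close together, while the macrophages of mouse 26 were the highest of their group.

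Several of the genes with the largest folds were expressed at low levels. *Ifitm6* was at 67.9, 47.6 and 23.3 CPM in the monocytes and 1.9, 4.07, 5.38 and 1.6 CPM in the macrophages (log2 3.93 ± 0.46, adjusted p = 4.14e-05). *Ms4a8a*, a tetraspan membrane protein, was at 48.5, 18.4 and 43.3 CPM against 3.8, 5.2, 0.896 and 3.19 CPM (log2 3.77 ± 0.57, adjusted p = 0.000989). *Gm9733* was at 26.6, 22.4 and 22.2 CPM against 0.475, 2.26, 1.49 and 3.19 CPM (log2 3.91 ± 0.45, adjusted p = 4.14e-05). For these 3 genes a macrophage replicate held few reads. That their groups did not overlap was a condition for naming them. *Klk1*, a serine protease, was at 61.6, 30.6 and 23.7 CPM against 4.75, 1.58, 0.896 and 1.06 CPM (log2 4.56 ± 0.93, adjusted p = 0.0272). Its call was lost without the monocytes of mouse 22 (adjusted p = 0.181) or of mouse 24 (0.082), and without the macrophages of mouse 23 (0.11), 24 (0.137) or 26 (0.122). *Cd177*, a surface glycoprotein best known from neutrophils, was at 63.1, 131 and 13.8 CPM against 0, 11.3, 13.1 and 3.73 CPM (log2 3.97 ± 0.82, adjusted p = 0.0206). In the monocytes of mouse 22, its reads came from the second library only, with 311 counts against 0. It was not called without the monocytes of mouse 22 (adjusted p = 0.152) or 24 (0.0707), nor without the macrophages of mouse 22 (0.0887) or 23 (0.0987).

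Among the called genes, the one with the largest fitted change was an immunoglobulin light chain variable segment, not a monocyte gene. *Igkv5-48* was at 255, 119 and 279 CPM in the monocytes, and macrophage reads came from mouse 24 alone, 6 counts or 1.79 CPM. The fitted log2 fold change was 8.58 ± 1.56 (adjusted p = 0.00739), a size that rests on a near-empty group. It was not called without the macrophages of mouse 22 (adjusted p = 0.0508). Among GFPneg cells the same contrast was 1.65 (adjusted p = 0.891). Of 54 tested immunoglobulin genes it was the only 1 called, 28 were above 0, and the fitted log2 fold changes ran from -9.46 to 8.58. The summed level of 8 B and plasma cell markers was 2991, 2260.4 and 1875 CPM in the monocytes and 2049.7, 878, 2655 and 249 CPM in the macrophages, and its part in this result was not tested.

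**Figure D2:**
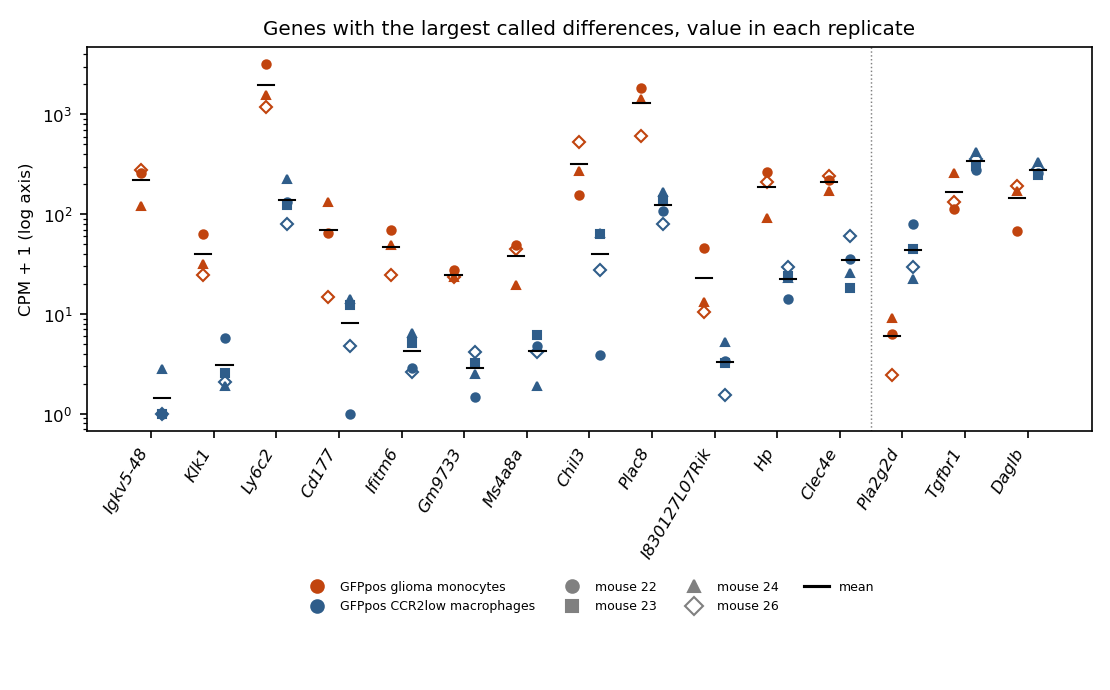
CPM + 1 (log axis) in each replicate for the 12 genes with the largest called increases and the 3 non-overlapping called decreases, to the right of the dotted line; orange marks GFPpos glioma monocytes, blue GFPpos CCR2low macrophages, the shape the mouse and the bar the mean. *Plac8* separates the populations with 612 CPM as the lowest monocyte value and 167 CPM as the highest macrophage value.

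The 4 genes that fell in the monocytes encode a secreted phospholipase, a growth factor, a growth factor receptor and a lipase. *Pla2g2d* encodes a secreted phospholipase known from resident lymphoid macrophages and dendritic cells (chr4:138775735-138782046 of GRCm38). It was at 5.27, 8.16 and 1.46 CPM in the monocytes and 78.8, 43.7, 21.5 and 28.7 CPM in the macrophages, without overlap and 12.2-fold higher in the macrophages (log2 -3.61 ± 0.64, adjusted p = 0.00757). *Igf1*, the growth factor IGF-1, was at 9.13, 51 and 12.4 CPM against 50.3, 169, 147 and 126 CPM (log2 -2.28 ± 0.49, adjusted p = 0.0362). The monocytes of mouse 24 just exceeded the macrophages of mouse 22, but within each of the 3 mice the macrophages were higher. *Tgfbr1*, the type I receptor for TGF-beta, was at 111, 259 and 132 CPM against 279, 303, 419 and 355 CPM (log2 -1.21 ± 0.28, adjusted p = 0.04996), at the very edge of the threshold. *Daglb*, a diacylglycerol lipase of endocannabinoid metabolism, was at 67.3, 171 and 192 CPM against 257, 244, 330.0 and 285 CPM (log2 -1.14 ± 0.25, adjusted p = 0.0393). Each of these calls rested on 1 or more replicates: without the monocytes of mouse 22 the adjusted p was 0.112 for *Pla2g2d*, 0.408 for *Tgfbr1* and 0.52 for *Daglb*, and *Igf1* was called in 1 of the 7 fits that left out a replicate. *Tgfbr1* also lost its call without the monocytes of mouse 26 (0.105) or the macrophages of mouse 22 (0.0984), 23 (0.163), 24 (0.111) or 26 (0.0937). *Daglb* lost it without the macrophages of mouse 22 (0.133), 23 (0.127) or 24 (0.155).

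The start sites of the genes that moved most were read from RefSeq promoters of GRCm38.p6, 250 bases before to 50 bases after each start, to show what sequence lies there. An entry existed for 8 of the 12 leading higher genes and 3 of the 3 leading lower ones. 3 motifs were searched on both strands: GAAANNGAA, the core of the interferon-stimulated response element, TGANTCA, the AP-1 site, and CACGTGAC, an E-box of lysosomal genes. Capitals mark a match, and the matches of GAAANNGAA in 1 promoter can overlap. *Isg15* and *Ifitm3*, which are not among these leading genes, are shown as interferon-stimulated genes that rose, chosen after their values were seen. *Pla2g2d* and *Klk1* are shown as the largest decrease and increase among called protein-coding genes.
*Isg15* (chr4:156200769-156201068, minus strand): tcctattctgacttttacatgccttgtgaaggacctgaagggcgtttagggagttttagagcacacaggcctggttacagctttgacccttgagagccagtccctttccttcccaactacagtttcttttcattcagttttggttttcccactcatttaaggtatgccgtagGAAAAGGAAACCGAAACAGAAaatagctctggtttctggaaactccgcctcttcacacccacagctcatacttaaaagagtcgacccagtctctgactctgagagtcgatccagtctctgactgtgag
*Ifitm3* (chr7:141010695-141010994, minus strand): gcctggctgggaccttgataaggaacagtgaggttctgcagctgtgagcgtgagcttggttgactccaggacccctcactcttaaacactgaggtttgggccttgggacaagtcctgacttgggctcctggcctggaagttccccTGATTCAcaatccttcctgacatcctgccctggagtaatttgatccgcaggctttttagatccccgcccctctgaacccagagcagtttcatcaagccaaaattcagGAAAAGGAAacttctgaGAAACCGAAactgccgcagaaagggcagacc
*Pla2g2d* (chr4:138775485-138775784, plus strand): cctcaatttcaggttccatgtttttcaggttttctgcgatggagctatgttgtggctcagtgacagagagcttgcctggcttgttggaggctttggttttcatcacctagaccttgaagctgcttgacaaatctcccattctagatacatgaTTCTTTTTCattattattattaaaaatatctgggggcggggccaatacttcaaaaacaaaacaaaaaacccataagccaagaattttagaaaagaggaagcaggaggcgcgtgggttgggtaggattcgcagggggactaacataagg
*Klk1* (chr7:44225110-44225409, plus strand): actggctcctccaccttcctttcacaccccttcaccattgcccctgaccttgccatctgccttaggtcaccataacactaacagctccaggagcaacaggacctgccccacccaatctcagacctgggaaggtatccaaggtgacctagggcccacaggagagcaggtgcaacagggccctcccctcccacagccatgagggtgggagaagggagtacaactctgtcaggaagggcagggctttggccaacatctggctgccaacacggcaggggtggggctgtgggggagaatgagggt
*Isg15* held 3 matches of GAAANNGAA in 1 overlapping run, and *Ifitm3* held 2 separate ones and 1 of TGANTCA. *Pla2g2d*, which was lower, held GAAANNGAA once, on the opposite strand, and *Klk1* held none of the 3. The promoters of the leading genes *Ly6c2*, *Cd177*, *Tgfbr1* and *Daglb*, read by the same rule and not printed, held none of the 3 either. Of the 37 genes called higher that had a promoter entry, 7 held GAAANNGAA in at least 1 promoter (18.9%: *Ccr2*, *Chil3*, *Ifitm3*, *Rnase6*, *Isg15*, *Ifi205* and *Cytip*). The share was 9.39% of the 8701 tested genes with a promoter. Of all 32851 promoters 8.56% held it, a share counted per promoter and not per gene. In the list of type I interferon-stimulated genes 10 of 20 held it (50%). TGANTCA was in 4 of the 37 (10.8%), against 6.36% of tested genes and 7.81% of all promoters. CACGTGAC was in 1 of the 37 (2.7%), in 4.9% of tested genes, in 2.25% of all promoters and in 6 of 21 lysosome genes (28.6%). A match says which letters are there and nothing about binding.

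Of the 54 higher genes, 11 were named Ly6, S100 or Ifitm, families that lie in clusters on the chromosome. The 11 include the gate gene *Ly6c2*. On chromosome 15, the Ly6 cluster of small GPI-anchored surface proteins gave *Ly6d*, *Ly6i* (chr15:74979534-74983430 of GRCm38), *Ly6a*, *Ly6c2* (chr15:75108158-75111970) and *I830127L07Rik* (chr15:75131377-75135128), the last annotated as a pseudogene. *Ly6i* was at 2473, 1237 and 318 CPM in the monocytes and 330.0, 179.9, 194 and 52.7 CPM in the macrophages. The monocytes of mouse 26 were below the macrophages of mouse 22, although they were higher than the macrophages of their own mouse (log2 2.72 ± 0.20, adjusted p = 1.94e-08). *Ly6a*, the antigen Sca-1, was far more evenly spread at 3982, 2093 and 1645 CPM against 1934, 1559, 1386 and 1239.5 CPM (log2 0.72, adjusted p = 0.026). *Ly6d* was at 285, 285 and 48.8 CPM against 81.2, 44.8, 116 and 11.2 CPM (log2 1.79, adjusted p = 0.00599). *Ly6a* was called in 2 of the 7 fits that left out a replicate, and *Ly6d* in 6. Of 10 tested genes named Ly6, 4 rose, among them the gate gene *Ly6c2*, and 0 fell. With spike-in scaling their median log2 fold change was -1.66, still above the all-gene median for 8 of the 10. Paralogs here are close enough for reads to be shared and dropped, so the levels of single members are uncertain.

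The S100 genes on chromosome 3 encode small calcium-binding proteins, some of them abundant in monocytes. Of 10 tested, 4 rose: *S100a4*, *S100a6*, *S100a10* and *S100a11*. *S100a6* was at 466, 336 and 323 CPM against 81.2, 163, 86 and 113 CPM without overlap (log2 2.03 ± 0.25, adjusted p = 7.18e-05). *S100a4* was at 98.8, 80.9 and 47.3 CPM against 11.4, 27.2, 24.8 and 11.2 CPM (log2 2.39, adjusted p = 0.0033), and *S100a10*, the annexin A2 partner, at 322, 187 and 259.6 CPM against 126, 128, 128 and 139 CPM (log2 1.06, adjusted p = 0.0141). The S100 family had its median at 0.95 on the log2 scale, and at -1.53 with spike-in scaling, where 9 of the 10 were above the all-gene median. Without the monocytes of mouse 22, 1 of the 4 was called.

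On chromosome 7, the interferon-induced transmembrane genes *Ifitm1*, *Ifitm3* and *Ifitm6* rose, out of 5 tested members. These proteins restrict the entry of enveloped viruses. *Ifitm3* was at 4049.8, 2725 and 1709 CPM in the monocytes against 1441, 1014, 1111 and 1021 CPM in the macrophages (log2 1.27 ± 0.21, adjusted p = 0.0018). *Ifitm1* was at 600.1, 392 and 319 CPM against 90.2, 78.7, 43.6 and 178 CPM (log2 2.27 ± 0.40, adjusted p = 0.00357). *Ifitm2* was at 1156, 673 and 544 CPM against 426, 335, 288 and 456 CPM and did not pass (adjusted p = 0.0568). All 5 were above the all-gene median with spike-in scaling, although their median was -1.11 there. Without the monocytes of mouse 22, 1 of the 5 was called. Of 11 tested Ms4a genes, which encode tetraspan proteins, *Ms4a4c* and *Ms4a8a* rose. *Ms4a4c* was at 1364, 1031 and 601 CPM against 304, 159, 299.5 and 184 CPM (log2 2.08 ± 0.33, adjusted p = 0.00118). Without the monocytes of mouse 26, 5 Ms4a genes and 5 Ly6 genes were called.

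Gene lists by function are read here against the background of all tested genes, of which 46.2% had a log2 fold change above 0 and whose median was -0.07. The lists and their members were chosen with earlier results of these data known, so their shares are a description and no test. Among 20 classical monocyte genes 11 rose, 0 fell and 19 were above 0 (95%), with a median of 2.06. The largest value of this list, 3.97, was that of *Cd177*, which is best known from neutrophils. Monocyte genes that did not pass included *Fn1* at 221 to 929 CPM against 173 to 984 CPM (log2 0.06, adjusted p = 0.986) and *F13a1*, coagulation factor XIII, at 74.1 to 425 CPM against 43.9 to 739 CPM (log2 -0.13, adjusted p = 0.974). With spike-in scaling the median of the list was -0.33, and 18 of the 20 were above the all-gene median. *Mcemp1*, *Napsa*, *Hopx*, *F10* and *Prdx6*, which are in none of the lists, also rose, with folds of 4.44, 3.65, 4.44, 3.35 and 2.49.

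**Figure D3:**
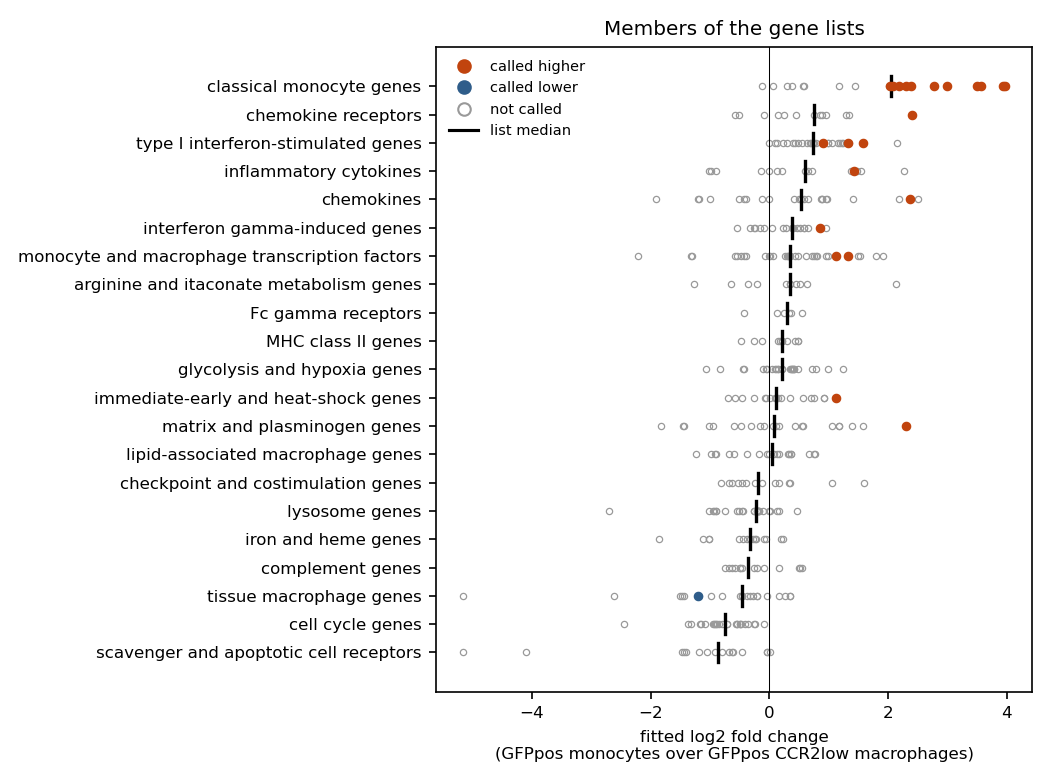
Fitted log2 fold change (GFPpos monocytes over GFPpos CCR2low macrophages) of every tested member of the gene lists, with called genes filled, other genes open, and a bar at the median of each list. The classical monocyte genes stand farthest to the right, with 11 of 20 called and a median of 2.06. No cell cycle gene is above 0 and none is called. The lists were chosen with earlier results of these data known.

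Of 28 type I interferon-stimulated genes, 27 were above 0 (96.4%) with a median log2 fold change of 0.74, and 3 passed the test. *Irf7*, the transcription factor that amplifies the interferon response (chr7:141262706-141266481 of GRCm38), was at 2475, 1985 and 837 CPM in the monocytes and 729, 539.7, 906 and 452 CPM in the macrophages. The monocytes of mouse 26 lay within the macrophage range, but were above the macrophages of the same mouse (log2 1.33 ± 0.21, adjusted p = 0.00118). *Isg15*, a ubiquitin-like protein, was at 963, 604 and 328 CPM against 275, 188, 282 and 123 CPM without overlap (log2 1.58 ± 0.28, adjusted p = 0.00509). *Zbp1*, a sensor of Z-form nucleic acid, was at 938, 607 and 303 CPM against 384, 326, 386 and 206 CPM (log2 0.9 ± 0.21, adjusted p = 0.0448). In all 3 genes the order among mice was alike in the monocytes, with mouse 22 the highest and mouse 26 the lowest. Without the mouse as a block 0 of the 28 were called, and in a fit of the compared populations alone 1 was, none of these 3 genes. *Isg15* and *Zbp1* were not called without the monocytes of mouse 22 (adjusted p = 0.139 and 0.6). *Zbp1* was not called without the macrophages of mouse 22 (0.109), 23 (0.0987), 24 (0.109) or 26 (0.137) either. *Isg20* had the largest difference of the list at 319, 305 and 118 CPM against 48.4, 53.6, 60.02 and 35.1 CPM, yet did not pass (adjusted p = 0.106). *Bst2* and *Oasl2*, abundant members of the list, had log2 fold changes of 0.24 and 0.69 and did not pass (adjusted p = 0.764 and 0.635). With spike-in scaling the 3 called genes turned lower in the monocytes, at -1.09 for *Irf7*, -0.74 for *Isg15* and -1.46 for *Zbp1*, while 27 of the 28 were above the all-gene median of -2.26.

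Of 19 tested genes induced by interferon gamma, 13 were above 0 with a median of 0.39, and only *Ifi47*, an immunity-related GTPase, rose, from 271 to 477 CPM in the macrophages to 421 to 1083 CPM in the monocytes (log2 0.85 ± 0.18, adjusted p = 0.026). It was not called without the monocytes of mouse 22 (adjusted p = 0.366) or the macrophages of mouse 22 (0.111), 23 (0.057) or 26 (0.0671). With spike-in scaling it was at -1.43. *Cxcl10*, the ligand of CXCR3, was at 1544, 823 and 644 CPM against 754, 406, 477 and 357 CPM (log2 0.96, adjusted p = 0.68). *Psmb8*, *Irgm1* and *Gbp2* had log2 fold changes of 0.4, 0.46 and 0.66. None of the 11 MHC class II genes passed (median 0.22). *Cd74*, the invariant chain, was at 30076, 24357 and 9875 CPM against 25657, 15061, 16154 and 13916 CPM, so that both populations were rich in it and the monocytes of mouse 26 were the poorest. *H2-Ab1* was at 7724, 15905 and 5161 CPM against 14348, 8255, 9939 and 6856 CPM. None of the 6 Fc gamma receptor genes passed (median 0.30).

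Among signals and their receptors, *Il1b*, *Ccl17* and *Ccr2* rose. *Il1b*, an inflammatory cytokine (chr2:129364570-129371139 of GRCm38), was at 3486, 1907 and 3249 CPM in the monocytes and 1243, 418, 776 and 1534 CPM in the macrophages, with no overlap (log2 1.43 ± 0.28, adjusted p = 0.0129). The call was lost without the monocytes of mouse 22 (adjusted p = 0.152) or 24 (0.0549) or the macrophages of mouse 23 (0.053), and its value with spike-in scaling was -1.01. It was the only 1 of 15 tested inflammatory cytokines to pass. *Il1rn*, its natural antagonist, was at 1703, 1547 and 889.7 CPM against 452, 523, 499 and 583 CPM, also without overlap, but did not pass (log2 1.38, adjusted p = 0.33). *Osm* was at 477, 1066 and 781 CPM against 437, 321, 522 and 554 CPM (adjusted p = 0.758).

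Of 23 chemokines, *Ccl17* rose. This ligand of CCR4 was at 41.2, 85.7 and 13.5 CPM against 6.17, 11.5, 14 and 3.19 CPM (log2 2.36 ± 0.51, adjusted p = 0.0329). The monocytes of mouse 26 lay within the macrophage range. *Ccl22*, the other CCR4 ligand, was at 119, 210.1 and 23.7 CPM against 17.1, 29.6, 46 and 5.32 CPM and did not pass (log2 2.18, adjusted p = 0.079). *Ccl17* lost its call without the monocytes of mouse 22 (adjusted p = 0.309) or 24 (0.162), and without the macrophages of mouse 22 (0.12), 24 (0.148) or 26 (0.137). Its value with spike-in scaling was -0.20. *Ccl8* was at 199, 175 and 146 CPM in the monocytes and 418, 869, 214 and 850.0 CPM in the macrophages. It ran in the opposite direction and did not pass (log2 -1.2, adjusted p = 0.301). Of 13 tested chemokine receptors only *Ccr2*, a gate gene, passed. *Ccrl2*, an atypical receptor that binds chemerin, was at 1553, 1129.9 and 1358 CPM against 665, 360.0, 598 and 1056 CPM (log2 0.89, adjusted p = 0.157), and was called once the monocytes of mouse 26 were left out (0.0176). *Cx3cr1*, the fractalkine receptor, was at 460.1, 1046 and 474 CPM against 688, 688, 942 and 943 CPM (adjusted p = 0.56).

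Among 34 transcription factors of monocytes and macrophages, *Irf7* and *Nr4a1* rose. *Nr4a1*, the orphan receptor Nur77 and also an immediate-early gene, was at 289, 419 and 588 CPM against 112, 122, 165 and 274 CPM (log2 1.13 ± 0.25, adjusted p = 0.0362). The macrophages of mouse 26 came close to the monocytes of mouse 22, and the call was lost without the monocytes of mouse 22 (0.165) or 24 (0.181) or the macrophages of mouse 22 (0.172), 24 (0.14) or 26 (0.149). With spike-in scaling it was at -1.17. *Fos* and *Zfp36*, other genes that respond within minutes to handling of cells, had log2 fold changes of 0.92 and 0.75 and did not pass (adjusted p = 0.394 and 0.36). *Irf8* was at 331, 1068 and 469 CPM against 1055, 892, 889.9 and 543 CPM (log2 -0.54, adjusted p = 0.721), with the monocytes of mouse 22 the lowest. Its 2 libraries from those cells differed, at 703 and 112 CPM each on its own scale. *Junb* differed between them even more, at 1733 and 31.7 CPM.

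Among 22 matrix and plasminogen genes *Thbs1*, thrombospondin 1, was the only 1 to pass. It was at 109, 122 and 1644 CPM in the monocytes and 24.2, 28.3, 18.8 and 484 CPM in the macrophages (log2 2.31 ± 0.51, adjusted p = 0.0349). Mouse 26 was far above the others in both populations, and the difference held within every mouse. *Thbs1* was called in only 1 of the 7 fits that left out a replicate, that without the monocytes of mouse 26. The adjusted p was 0.136 and 0.188 without the monocytes of mice 22 and 24, and 0.109, 0.11, 0.12 and 0.117 without the macrophages of mice 22, 23, 24 and 26. Its value with spike-in scaling was -0.19. *Mmp2*, a gelatinase, was at 37.9, 48.3 and 83 CPM in the monocytes against 248, 243, 193 and 123 CPM in the macrophages (log2 -1.83, adjusted p = 0.0582). *Mmp13*, a collagenase, was at 172, 112 and 106 CPM against 383, 246, 249.6 and 332 CPM (log2 -1.46, adjusted p = 0.0896). Neither of these 2 genes passed the test.

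Most tissue macrophage genes and scavenger receptors had fitted values below 0, and 1 of them passed the test. Of 22 tissue macrophage genes 4 were above 0 (median -0.46), and *Tgfbr1* alone was called lower. Of 16 tested scavenger receptors and receptors for apoptotic cells 1 was above 0, the median was -0.86 and 0 passed. *Colec12*, a scavenger receptor with a collagen-like stalk, was at 1.01, 5.44 and 5.83 CPM in the monocytes and 50.8, 33.3, 55.8 and 56.4 CPM in the macrophages (log2 -4.11, adjusted p = 0.0607). *Mertk*, a receptor kinase for apoptotic cells, was at 50.1, 104 and 87 CPM against 161, 144, 229 and 214 CPM (log2 -1.44, adjusted p = 0.134). *Vcam1* was at 217, 146 and 115 CPM against 393, 427, 330.0 and 876 CPM (log2 -1.5, adjusted p = 0.0958). None of these 3 genes passed the test. *Cd163*, the hemoglobin-haptoglobin receptor, had reads in 1 monocyte replicate at 0.811 CPM and was at 10.9, 10.9, 12.2 and 69.2 CPM in the macrophages (adjusted p = 0.254). These 4 were picked after their values were seen. With spike-in scaling the list medians were -2.87 and -3.22, both below the all-gene median.

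Abundant macrophage products did not pass the test, and several overlapped between the populations. *Apoe*, the lipid carrier apolipoprotein E, was at 4390.5, 3077 and 5866 CPM in the monocytes and 11695, 4997, 6583 and 9938 CPM in the macrophages (log2 -0.99 ± 0.39, adjusted p = 0.418). In the monocytes of mouse 22 the 2 libraries gave 9536 and 1402 CPM of it. *C1qb*, a chain of complement C1q, was at 7259.8, 6152 and 3084 CPM against 7720.1, 5766, 5646 and 5544 CPM (adjusted p = 0.912). *Spp1*, osteopontin, was at 977, 560.2 and 1687 CPM against 1993, 2571, 1558 and 2969 CPM (log2 -1.24 ± 0.46, adjusted p = 0.373). None of the 14 tested complement genes passed (median -0.35), none of 20 genes of lipid-associated macrophages (10 above 0, median 0.04) and none of 15 iron and heme genes (median -0.32). None of 26 lysosome genes passed either, and 4 of them were above 0 (median -0.23). The aspartic protease *Ctsd* was at 8531, 8069 and 5424 CPM against 11323, 9239.7, 9796 and 9671 CPM (adjusted p = 0.248). The cysteine protease *Ctsb* was at 6423, 6313 and 5395 CPM against 8696, 7786, 7316 and 8434 CPM (adjusted p = 0.387).

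Cell cycle genes were all below 0. Of 26, 0 were above 0, the median was -0.75 and 0 passed the test. *Rrm2*, a subunit of ribonucleotide reductase, was at 30.4, 38.1 and 55.4 CPM in the monocytes and 96.4, 102, 103 and 93.7 CPM in the macrophages (log2 -1.36, adjusted p = 0.36). *Mcm6*, a helicase subunit, was at 13.2, 167 and 140.2 CPM against 219.8, 234, 221 and 188 CPM (log2 -1.09, adjusted p = 0.751). Its level in the monocytes of mouse 22 was far below that of every other replicate. With spike-in scaling 0 of the 26 were above the all-gene median.

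No gene of the metabolic or checkpoint lists passed the test. *Arg1*, the arginase that consumes arginine in myeloid cells, was at 558, 645 and 1622 CPM in the monocytes and 264, 1597, 595 and 1841 CPM in the macrophages (log2 0.34 ± 0.23, adjusted p = 0.763). Mouse 26 was high in both populations, and so were the macrophages of mouse 23. None of 11 genes of arginine and itaconate metabolism passed (median 0.34). Of 26 glycolysis and hypoxia genes 19 were above 0 and none passed (median 0.21); *Pkm*, *Ldha* and *Gapdh* had log2 fold changes of 0.1, 0.21 and 0.15. None of 14 tested checkpoint and costimulation genes passed (median -0.18). *Sirpa*, the receptor for the CD47 signal, was at 306, 568 and 338 CPM against 557, 538, 599 and 567 CPM (log2 -0.63, adjusted p = 0.36). *Tnfrsf1b*, the TNF receptor TNFR2, was at 294, 526 and 559 CPM against 321, 351, 341 and 537 CPM (log2 0.1, adjusted p = 0.964).

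Markers of other cell types were present and differed widely between mice. None of their tested members was called. The summed level of 12 neutrophil markers was 90.4, 2921 and 242 CPM in the monocytes of mice 22, 24 and 26 and 19, 105, 940.1 and 176 CPM in the macrophages of mice 22, 23, 24 and 26. Mouse 24 was the highest in both populations, and *Mpo* and *Elane* were at 0 in all 7 replicates. The 10 tested members were all above 0. *Cd177*, *Clec4e* and *Hp*, which rose, are also expressed by neutrophils, and the part of these cells in those results was not tested. *Cd177* was highest in mouse 24 in both populations, while *Hp* and *Clec4e* were not. The 14 T and NK cell markers summed to 2021, 2671 and 830.3 CPM against 867, 1709.6, 1286 and 725 CPM and the 10 dendritic cell markers to 585, 954 and 399.9 CPM against 331, 279.7, 493 and 230.5 CPM. For *Ccl17* and *Ccl22*, which dendritic cells also make, the part of dendritic cells was not tested. The 12 microglia markers summed to 6851, 9874 and 5695 CPM against 7505, 7376, 10331 and 7021 CPM. Endothelial and stromal markers were highest in mouse 26, at 623 CPM in the monocytes and 538 CPM in the macrophages, against 32.6 to 175 CPM elsewhere. *Thbs1* was also highest in mouse 26, and the part of these cells in it was not tested. Markers of neural progenitors and glioma summed to 92.1, 10.2 and 177 CPM against 37, 89.8, 56.4 and 127 CPM, and the neuronal markers *Rbfox3* and *Gad1* were at 0. Oligodendrocyte markers summed to 365 to 618 CPM, astrocyte markers to 125 to 202 CPM and erythroid markers to 0 to 90.4 CPM over the 7 replicates.

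Both kinds of cells were also sorted without tumor membrane. The contrast could thus be repeated among GFPneg cells of the same mice, in 3 monocyte and 4 macrophage replicates. There 219 genes were higher in the monocytes (1.89%) and 44 lower (0.38%). All of the 58 genes called among GFPpos cells had the same direction, and 49 were called in both comparisons, 47 higher and 2 lower (*Igf1* and *Daglb*). Of the classical monocyte genes, *Plac8* had a log2 fold change of 3.49 among GFPpos and 3.96 among GFPneg cells, and *Chil3* of 3.57 and 4.84. *Ccr2* had 2.4 and 3.65. The median of the 28 type I interferon-stimulated genes was 0.74 among GFPpos and 1.54 among GFPneg cells, and that of the scavenger receptors -0.86 and -0.11. The 9 genes called only among GFPpos cells were *Igkv5-48*, *Pla2g2d*, *Tgfbr1*, *Ccl17*, *Ly6d*, *Ifitm1*, *Rnase6*, *S100a10* and *Cytip*. In the GFPneg comparison *Pla2g2d* was at -1.79 (adjusted p = 0.243), *Tgfbr1* at -0.78 (0.202), *Ccl17* at 1.21 (0.362) and *Ly6d* at 0.70 (0.484).

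A gene called in 1 comparison and not in the other is not thereby different between them. The difference between the GFPpos and the GFPneg contrast, tested as an interaction, was called for 0 of 11566 genes (0%) by edgeR's quasi-likelihood test, with a smallest adjusted p of 0.798. At an unadjusted p below 0.05, 575 genes passed (4.97%). DESeq2's Wald test called 57. For *Igkv5-48* the contrast was larger among GFPpos cells by 6.93 ± 2.36 on the log2 scale, with an unadjusted p of 0.00807 and an adjusted p of 0.916. For *Pla2g2d* it was -1.83 ± 0.86 (adjusted p = 0.987), and for *Irf7* -0.67 ± 0.29 (adjusted p = 0.987).

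**Figure D4:**
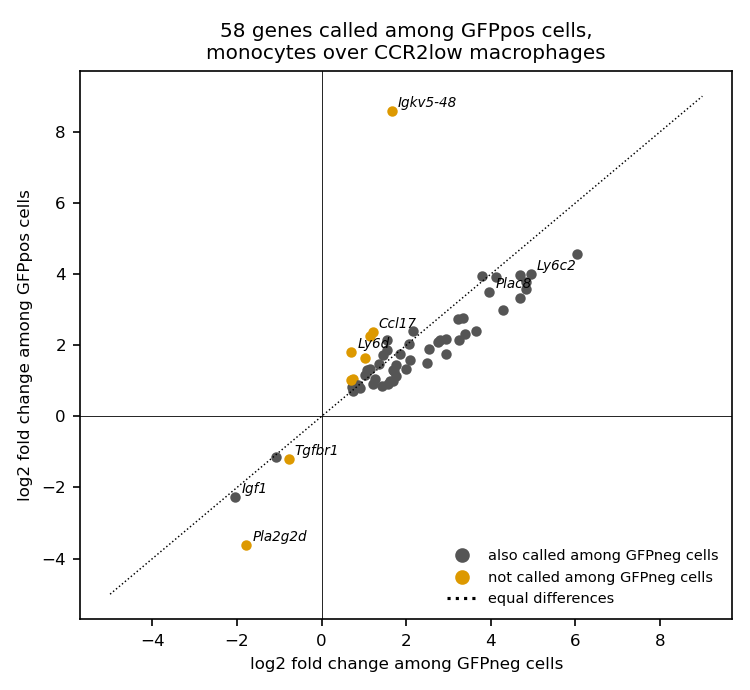
Log2 fold change of monocytes over CCR2low macrophages among GFPpos cells (vertical axis) against the same contrast among GFPneg cells (horizontal axis) for the 58 genes called among GFPpos cells; dark points were also called among GFPneg cells, and the dotted line marks equal differences. All 58 points share their sign, and 9 were not called among GFPneg cells.

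The levels of the leading genes across the sorted populations are given as means ± SD, as a description. *Plac8* was at 1677 ± 312 CPM in Ly6Chigh blood monocytes and 2492 ± 948 CPM in GFPneg glioma monocytes (n = 3 each). It was at 1288 ± 622 CPM in GFPpos glioma monocytes (n = 3), 199 ± 70.6 CPM in GFPpos CCR2high macrophages and 123 ± 38.3 CPM in GFPpos CCR2low macrophages (n = 4 each). The monocyte populations overlapped with each other, and all of them lay above every macrophage population. *Irf7* was low in Ly6Chigh blood monocytes at 409 ± 73 CPM. It was at 2608 ± 671 CPM in GFPneg and 1766 ± 841 CPM in GFPpos glioma monocytes, 927 ± 223 CPM in GFPpos CCR2high and 657 ± 203 CPM in GFPpos CCR2low macrophages. Both glioma monocyte populations thus had more of it than blood monocytes in every replicate. *Il1b* was at 89.1 ± 52.2 CPM in Ly6Chigh blood monocytes and 2881 ± 852 CPM in GFPpos glioma monocytes. The GFPpos CCR2high macrophages were between the compared populations at 1577 ± 798 CPM, with ranges that overlapped those of both (919.6 to 2691 CPM against 418 to 1534 CPM in GFPpos CCR2low macrophages).

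Of the genes higher in the macrophages, *Pla2g2d* and *Igf1* were near 0 in blood monocytes. *Pla2g2d* had a mean of 0 CPM in Ly6Chigh blood monocytes. It was at 2.88 ± 2.54 CPM in GFPneg glioma monocytes and 4.96 ± 3.36 CPM in GFPpos ones. GFPpos macrophages had 48.8 ± 33.4 CPM with high and 43.2 ± 25.5 CPM with low CCR2, and the GFPneg macrophages 10.1 ± 6.85 and 8.13 ± 2.93 CPM. *Igf1* was highest in the GFPpos CCR2low macrophages at 123 ± 51.7 CPM, next to 63.8 ± 24.3 CPM in the GFPpos CCR2high and 54.5 ± 19.5 CPM in the GFPneg CCR2low macrophages, whose ranges overlapped with it. *Tgfbr1* was expressed in blood too, at 160.0 ± 74.3 CPM in Ly6Chigh and 245 ± 153 CPM in Ly6Clow monocytes. *Ccl17* was at 0 CPM in Ly6Chigh blood monocytes, 46.8 ± 36.4 CPM in GFPpos glioma monocytes and 32.3 ± 23.5 CPM in GFPpos CCR2high macrophages, with ranges that overlapped between these last populations.

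**Figure D5:**
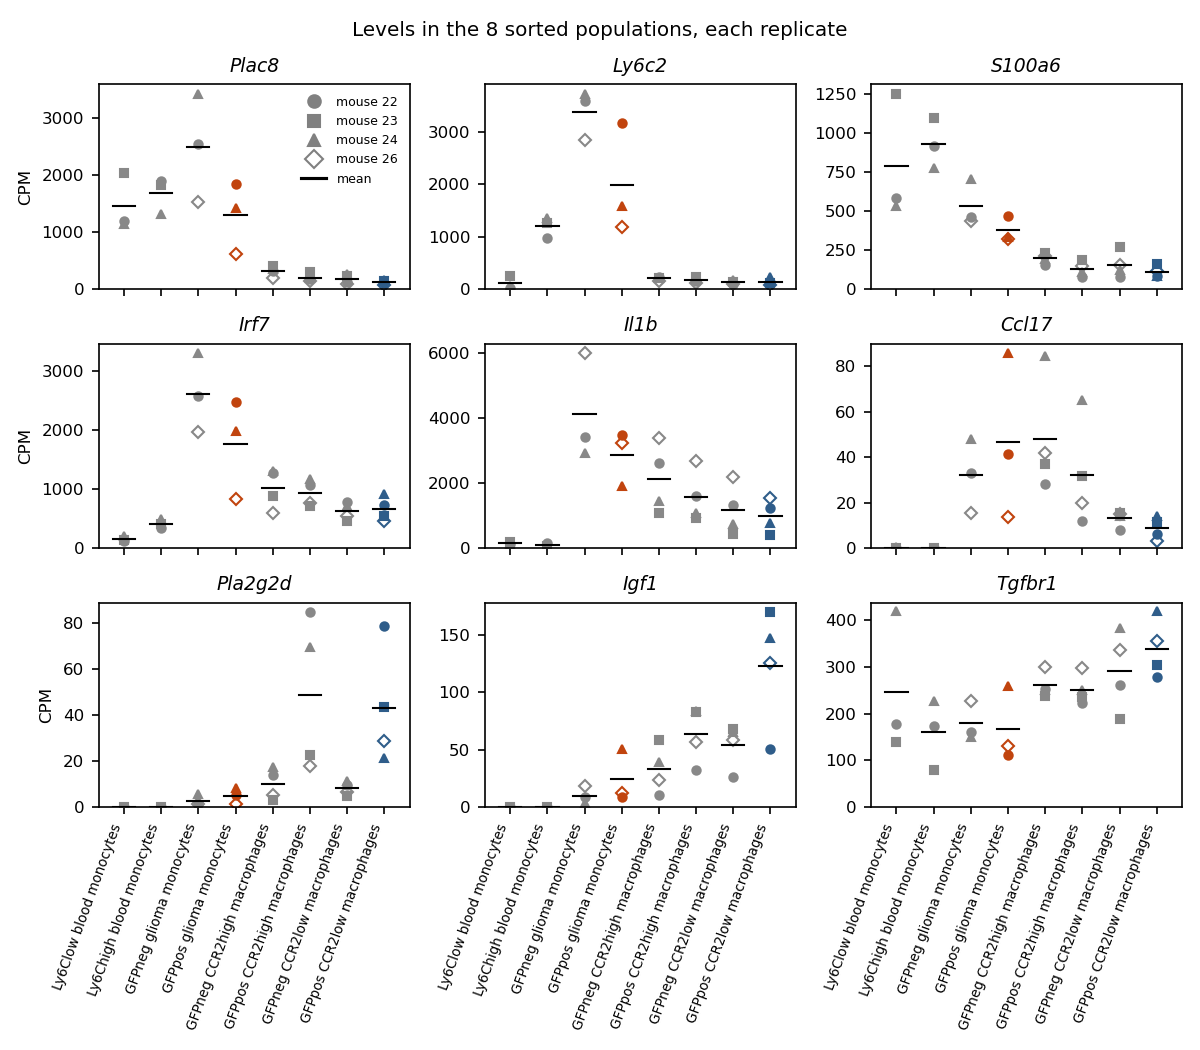
CPM of 9 genes in each replicate of the 8 sorted populations, with the compared populations in orange and blue, the shape marking the mouse and the bar the mean. *Plac8* and *Ly6c2* drop between the glioma monocytes and the macrophages, *Irf7* and *Il1b* are low in blood and high in glioma monocytes, and *Pla2g2d* and *Igf1* are near 0 in blood.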

How the data were processed

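Populations were sorted from 4 mice, and the mRNA of each was amplified and sequenced in pairs of reads after spike-in RNA was added. The authors aligned the reads with STAR, removed duplicates with Picard, counted reads per gene with HTSeq in its intersection-strict mode against GRCm38.p3 and deposited raw counts per gene without normalization; the strand setting is not given in the sources used here. Removing duplicates flattens the most abundant genes, and reads shared by close paralogs are dropped. The deposited count tables held 45317 genes and 92 spike-in RNAs, and 0 columns of other samples. Reads outside genes (7.85% to 9.38%), ambiguous reads (1.63% to 1.83%) and spike-in RNAs were kept out of library totals and tests.

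Replicates were grouped by the labels, and the 2 libraries of the monocytes of mouse 22 were summed. edgeR 4.0.16 (in R 4.3.3) fitted all 28 replicates of 8 populations at once with the population and the mouse as terms (TMM scaling, filterByExpr, robust quasi-likelihood test, 11566 genes tested), with Benjamini-Hochberg adjustment over all of them and a threshold of 0.05. The populations were thus compared within mice, and the spread was shared by all populations. Replicates with the same mouse number came from the same animal, and their deviations from the population means correlated at 0.18, 0.184 and 0.482 in mice 22, 24 and 26. By *Xist* and 4 Y-linked genes, the replicates of 4 of 4 mice were of 1 sex each. Alternatives were no replicate block, only the compared populations, DESeq2 1.42.0 (size factors or its Wald test), spike-in scaling, other filters on low counts, either library of mouse 22 alone and each replicate left out; the fit without mouse 26 was chosen after the data were seen. The fit was tested on simulated data. Members and gene lists were chosen with earlier results of these data known. Named genes are the 12 called genes with the largest increase and up to 12 with the largest decrease whose mean over the 7 replicates reached 10 CPM and whose groups did not overlap, up to 8 called members of each list and its 3 most abundant others. Further called genes, the Ly6, S100, Ifitm, Ms4a and immunoglobulin families, list members outside this rule and the promoters of *Isg15* and *Ifitm3* were chosen after their values were seen. Positions are from GENCODE (GRCm38) and promoters from RefSeq (GRCm38.p6), in which 58 of 58 called genes had a position. The authors' comparisons were not used here. Counting error is larger at low levels: 3 reads correspond to 0.527 to 1.93 CPM in these replicates. The results of some genes that met the naming rule are not reported here.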

Additional observations from a re-analysis of the deposited data

Results flagged for a closer look

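Among 88 named genes, 4 had a macrophage replicate far from the other 3, judged by its gap to the nearest value as a share of the whole range (Dixon's criterion at the 95% level); chance gives such a gap in about 1 of 20 groups. *Thbs1* was at 484 CPM in the GFPpos CCR2low macrophages of mouse 26 and at 18.8 to 28.3 CPM in the others, and at 1644 CPM in the monocytes of mouse 26 against 109 and 122 CPM in the other monocytes. *Tnfrsf1b* was at 537 CPM in the macrophages of mouse 26 and at 321 to 351 CPM in the others. *C1qb* was at 7720.1 CPM in the macrophages of mouse 22 and at 5544 to 5766 CPM in the others. *Igkv5-48* was at 1.79 CPM in the macrophages of mouse 24 and at 0 in the others. The criterion was applied to groups of 4 or more and so not to the 3 monocyte replicates.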

How the results depend on the processing

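Without the replicate block, 20 genes were called, 20 higher and 0 lower, and a fit of the compared populations alone called 15, 15 higher and 0 lower, of which 13 were among the 58. All 20 were among the 58, so the pairing by mouse changed how many genes passed. DESeq2's Wald test called 204, 126 higher and 78 lower, including all 58, and called the difference between the GFPpos and GFPneg contrasts for 57 genes. That difference was called for 0 genes in every edgeR alternative run for it. In lists where no gene passed above, DESeq2's Wald test called 3 lysosome genes, 2 scavenger receptors, 1 iron and heme gene and 1 lipid-associated macrophage gene lower. It called 1 glycolysis and hypoxia gene and 1 checkpoint and costimulation gene higher. It called none of the complement, MHC class II, Fc gamma receptor, cell cycle or arginine and itaconate genes. When 1 replicate was left out, 24 to 174 genes were called, 23 to 118 higher and 1 to 56 lower; 24 came without the monocytes of mouse 22 and 174 without those of mouse 26. Without mouse 26 in both populations, a fit chosen after the data were seen, 98 were called, 24 of them lower, including 51 of the 58. Spike-in scaling called 0 higher and 5 in all, 2 of them among the 58, and turned 11 named genes: *Ccr2* to -0.034, *S100a6* to -0.31, *Ms4a4c* to -0.34, *Irf7* to -1.09, *Isg15* to -0.74, *Zbp1* to -1.46, *Ifi47* to -1.43, *Il1b* to -1.01, *Ccl17* to -0.20, *Nr4a1* to -1.17 and *Thbs1* to -0.19 on the log2 scale. The higher spike-in share of the monocytes of mice 22 and 24 enters this scaling directly. DESeq2's size factors (58 genes), no filter on low counts (53), at least 10 counts in every compared replicate (55) and the monocytes of mouse 22 from library 1 (46) or 2 (62) alone stayed within 1.5 times the count. *Ccr2*, *Plac8*, *Mcemp1*, *Ly6c2*, *Ms4a4c*, *Napsa* and *S100a6* were among the genes called in 16 of the 17 alternatives, spike-in scaling being the exception. The precision for genes with few reads is limited by the monocyte replicates, 3 in number and of unequal depth.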
